A study of Mus musculus with 4 samples.

Results

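A group of 5 genes on the route from Gq-coupled receptors to the endocannabinoid 2-arachidonoylglycerol (2-AG) was followed across the cell types of the mouse hippocampus: Plcb1, Plcb3 and Plcb4, which encode phospholipase C beta enzymes, and Gnaq and Gna11, which encode the alpha subunits that switch those enzymes on. They were chosen by name as members of this route and are 5 of the 20211 genes listed in all 4 libraries. The study sequenced RNA from single nuclei of hippocampus, 1 library per genotype. Wild type was 1 of them, and the other 3 were knockouts of MAGL, the monoacylglycerol lipase encoded by Mgll, labelled total, astrocyte specific and neuron specific. Below, the libraries are called wild type, total, astrocyte and neuron after these labels, and values for all libraries are given in that order. The sources used here do not state the Cre or promoter behind each knockout, the deleted part of Mgll, or the age, sex and number of the animals. With 1 library per genotype no genotype difference could be tested, and 1 library was the only sample of each genotype.

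Gq-coupled receptors, such as metabotropic glutamate receptor 5 and the M1 and M3 muscarinic receptors, activate the alpha subunits encoded by Gnaq and Gna11. These bind phospholipase C beta, which cleaves the membrane lipid PIP2 into IP3, which releases calcium from internal stores through IP3 receptors, and diacylglycerol, which activates protein kinase C. Diacylglycerol lipases, mainly the enzyme encoded by Dagla in neurons, turn diacylglycerol into 2-AG, which acts back on CB1 receptors of nearby terminals and is broken down largely by MAGL. Phospholipase C beta 1 is the main isoform described for the forebrain, whereas phospholipase C beta 4 is best known from the retina, thalamus and parts of the cerebellum.

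Plcb1 and Plcb4 lie in the same orientation on mouse chromosome 2 (GRCm38, GENCODE M21), Plcb1 at chr2:134786067-135475258 and Plcb4 at chr2:135659011-136014593, both on the plus strand. Because these neighbours had very different levels across the cell types, the stretches just upstream of their start sites are shown, from the RefSeq promoter table for GRCm38.p6, plus strand, in lower case with GGGCGG on either strand in capitals. The Plcb1 stretch spans chr2:134785914-134786066, the one before the first Plcb4 start in RefSeq, which lies inside the GENCODE gene, spans chr2:135659455-135659546, and the one before the second Plcb4 start spans chr2:135764588-135764837.
Plcb1: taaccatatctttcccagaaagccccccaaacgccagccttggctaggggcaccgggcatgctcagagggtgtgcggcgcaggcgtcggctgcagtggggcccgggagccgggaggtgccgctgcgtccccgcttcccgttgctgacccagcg
Plcb4 first start: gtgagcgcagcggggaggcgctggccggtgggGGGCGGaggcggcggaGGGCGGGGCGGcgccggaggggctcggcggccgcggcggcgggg
Plcb4 second start: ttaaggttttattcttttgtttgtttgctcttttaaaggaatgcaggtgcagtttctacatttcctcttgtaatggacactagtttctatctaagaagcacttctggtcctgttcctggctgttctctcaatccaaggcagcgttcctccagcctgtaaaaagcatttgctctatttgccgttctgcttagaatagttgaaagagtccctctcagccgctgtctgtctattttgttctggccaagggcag
The stretch before the first Plcb4 start held 3 GGGCGG matches, 2 of them sharing bases, and its whole 250-base window held 7, with 85.2% G or C. The printed Plcb1 stretch held 0, and its 250-base window held 1. The window before the second Plcb4 start held 0, with 42.8% G or C. Of 32851 such windows in the table, 32.7% held at least 1 match. These matches describe the letters of the windows and say nothing of which start each cell type used, which the gene counts cannot show.

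The libraries held 8945 to 31243 barcodes and 81623644 to 193307038 unique molecular identifiers (UMIs, each counting 1 captured RNA molecule). After filtering, 51161 of 60288 nuclei remained, and 36181 fell into 13 classes present in every library. Classes were made by clustering without the 5 genes or the other genes of their pathway, and each name means that the cluster resembled that cell type in markers. They comprised 4 classes of hippocampal excitatory neurons (dentate granule, CA1, CA2/CA3 and mossy), 1 of subicular or cortical excitatory neurons, 5 of inhibitory neurons and 3 of glia. Mgll itself was still counted in the knockout libraries: dentate granule neurons had 121, 103, 140 and 130 CPM (the UMIs of a gene scaled to 1e+06 UMIs of its class and library), and astrocytes had 379, 301, 237 and 463 CPM. Since the deleted part of Mgll is not stated, these counts do not settle whether it was deleted, and the library names below are used as labels. The total library also stood apart in size, in a doublet share of 23.8% against 2.14% to 5.99% elsewhere, and in having no nuclei classed as female, where the others had both sexes. Its cell composition differed too. Nuclei resembling medium spiny neurons numbered 32, 748, 0 and 1, and those resembling thalamic excitatory neurons 1, 140, 21 and 0. Oligodendrocytes numbered 365, 1374, 42 and 53 nuclei, and oligodendrocyte precursors 289, 659, 22 and 18.

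Plcb4 was nearly absent from the 4 classes named hippocampal excitatory, and its mean was higher in each of the 9 other classes. Some clusters of other neurons were also low. CA1 pyramidal neurons had 2.27, 3.61, 1.45 and 2.24 CPM, resting on 28, 53, 24 and 29 UMIs. CA2/CA3 pyramidal neurons had 2.07, 3.72, 1.53 and 3.06 CPM, and dentate granule neurons had 4.44, 4.89, 4.32 and 4.07 CPM. The dentate values all lay above the CA1 values, while CA1 and CA2/CA3 overlapped. Mossy cells, the rare excitatory neurons of the dentate hilus, had 2.82 ± 2.06 CPM (SD, n = 4 libraries) on 1 to 4 UMIs per library.

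All 9 other classes were far above these levels. Astrocytes were highest at 231 ± 38.2 CPM (268, 259, 203 and 193), followed by Cck inhibitory neurons at 170 ± 9.21 CPM (165, 183, 162 and 171; SD, n = 4 for each). Sst, Lamp5, Vip and Pvalb inhibitory neurons, oligodendrocyte precursors and subicular or cortical excitatory neurons lay between 131 and 149 CPM. The summed level of 5 excitatory neuron markers was 358, 366, 806 and 293 CPM in astrocytes and 7.71, 45.8, 610 and 144 CPM in oligodendrocyte precursors, and the part of neuronal RNA in the values of these glia was not tested. Oligodendrocytes were lower in Plcb4, at 62.6, 61.9, 76.2 and 64.2 CPM, below each of the other non-hippocampal classes in every library and still above every hippocampal excitatory value.

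Over UMIs summed per library and class, edgeR's quasi-likelihood test called Plcb4 lower in the hippocampal excitatory class in 36 of 36 pairs with the 9 others (adjusted p under 0.05, Benjamini-Hochberg over 15058 genes in each pair). Over all 78 pairs of classes, 43.7% of tests over all genes were called in either direction, 55 of 78 were called for Plcb4, and the members other than Plcb3 together gave 146 of 312, or 46.8%, near the share of genes in general. The log2 differences of Plcb4 in the 36 pairs ran from -6.24 (CA1 against astrocytes) to -3.63 (dentate granule neurons against oligodendrocytes, where 61.9% of genes were called). CA1 against Sst inhibitory neurons differed by -5.77 on the log2 scale (SE 0.13, edgeR adjusted p = 4.1e-45), in a pair where 59.9% of genes were called. CA1 against subicular or cortical excitatory neurons, likewise glutamatergic, differed by -5.67 (SE 0.13, edgeR adjusted p = 8.18e-45, 49.3% of genes called), in the same direction in 4 of 4 libraries. Neighbours at the top of the order were not called apart by edgeR, although their ranges of CPM did not overlap. Astrocytes and Cck inhibitory neurons differed by 0.23 (edgeR adjusted p = 0.222, 34.6% of genes called), and Cck and Sst by 0.23 (edgeR adjusted p = 0.0588).

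Among the hippocampal excitatory classes, Plcb4 was called in 2 of 6 pairs, dentate granule neurons over CA1 (0.83, SE 0.19, edgeR adjusted p = 0.000111, 56.3% of genes called) and over CA2/CA3 (0.74, SE 0.20, adjusted p = 0.000966, 59.5% of genes called). Both depended on how nuclei were assigned. When nuclei were gated one by one on markers instead of by cluster, the first turned to -3.33 (edgeR adjusted p = 1.32e-08) and the second to -2.61 (adjusted p = 4.22e-06). With doublets kept they were 0.69 and 0.53 (edgeR adjusted p = 0.0563 and 0.138), and with male nuclei only 0.62 and 0.41 (adjusted p = 0.124 and 0.331). The second was also not called with thinned nuclei (0.82, edgeR adjusted p = 0.152) or without the astrocyte library (0.54, adjusted p = 0.052).

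The gating also raised the hippocampal levels themselves. Gated CA1 nuclei had 12 to 42.7 CPM of Plcb4, gated CA2/CA3 nuclei 15.7 ± 5.66 CPM, and gated mossy cells 80.8 ± 99.1 CPM (SD, n = 4), with 228 CPM in wild type, within the range of the other classes. Gated dentate granule nuclei stayed at 2.59 ± 0.316 CPM. Of the gated nuclei, 99.4% of the dentate granule, 79.2% of the CA1 and 71.1% of the CA2/CA3 ones lay in clusters of that name. Over the 36 pairs above, 27 were called lower in the hippocampal class under this gating by edgeR, and 0 higher. With doublets kept, all 27 pairs that could be fitted were called lower, from -4.88 to -2.87.

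**Figure D1:**
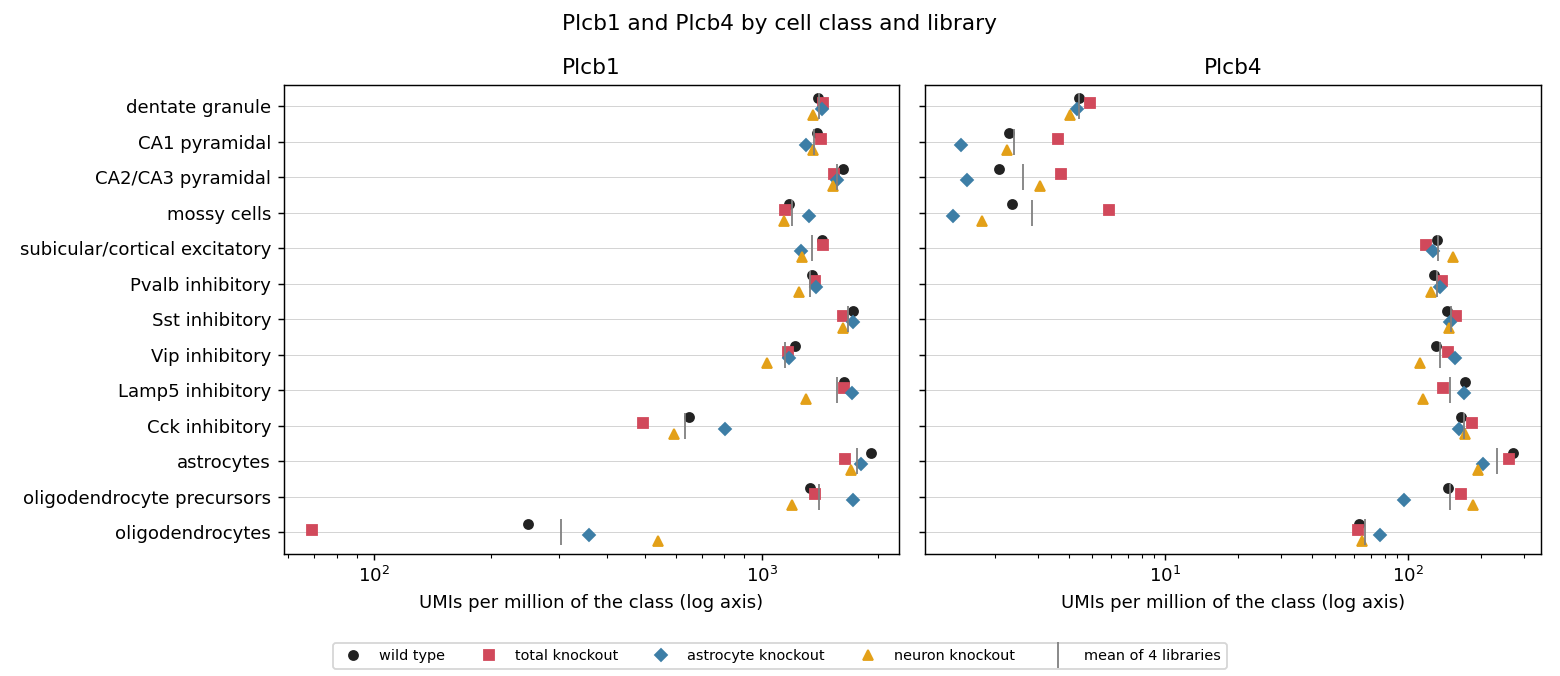
Levels of Plcb1 and Plcb4 in CPM (log axis) in each of 13 cell classes, 1 point per library and a line at the mean of the 4 libraries. Plcb4 in the 4 hippocampal excitatory classes lies between 1.34 and 5.85 CPM, below every value of the 9 other classes, and Plcb1 lies lowest in oligodendrocytes and Cck inhibitory neurons.

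Within classes Plcb4 also differed between clusters, which are described without a test since the cluster borders come from the same nuclei. The dentate granule class was made of 2 clusters: the one led by Dsp, Glis3 and Il1r1 had 1.98 ± 0.309 CPM and the one led by Gm6999, Plk5 and C1ql2 had 11.5 ± 2.18 CPM (SD, n = 4). The Dsp cluster, at 2.09, 1.87, 2.34 and 1.61 CPM, lay within the CA1 range of 1.45 to 3.61 CPM. Only the Gm6999 cluster, the smaller and shallower with a median of 4203 against 6383 UMIs per nucleus, lay above that range. The subicular or cortical class spanned a wider range. Its cluster led by Kcnh8, Ly6g6e, Hmga2 and Nxph3 had 428 ± 71.0 CPM, whereas its cluster led by Dlk1, Fras1 and Dcn had 16.2 ± 2.92 CPM (14.1 to 20.5). The latter was named from Fn1, Fezf2 and Etv1, but its markers were closest to CA1 pyramidal neurons. The same was true of the cluster led by Erg, Lipm and L3mbtl4, named from Tshz2, Fezf2 and Etv1. That cluster had 93.7, 49.3, 60.9 and 81.7 CPM of Plcb4. Outside the 13 classes, the cells resembling thalamic excitatory neurons had 811 CPM in the total library and 981 CPM in the astrocyte library, the only libraries that held at least 15 of them. An unnamed cluster led by Ebf2 and Ebf3 had 829 CPM in wild type and 941 CPM in total, the 2 libraries with at least 15 of its nuclei. A cluster resembling Cajal-Retzius cells, led by Trp73, Ndnf and Ebf3 and not counted among the hippocampal excitatory classes, was far above those classes. It had 204 CPM in wild type, on 23 UMIs, and 236 CPM in total, on 65 UMIs. Low levels were not particular to the hippocampal classes. Of the unnamed clusters, the one led by C1qtnf7, Dcn and Fign had 9.57 ± 2.50 CPM. The one led by Cdc14a, Wfs1 and Hmcn1 had 14.8 ± 3.69 CPM (SD, n = 4 for each). Both had markers closest to subicular or cortical neurons, but few of them. They were only Rorb in the C1qtnf7 cluster and only Tshz2 and Fn1 in the Cdc14a cluster, and Wfs1 is a CA1 marker. The unnamed cluster led by Cpa6 and Lef1 had 5.31 to 22.9 CPM. Medium spiny neurons, the projection neurons of the striatum, were low as well, at 11.9 CPM in wild type, on 3 UMIs, and 10.9 CPM in total, on 42 UMIs.

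**Figure D2:**
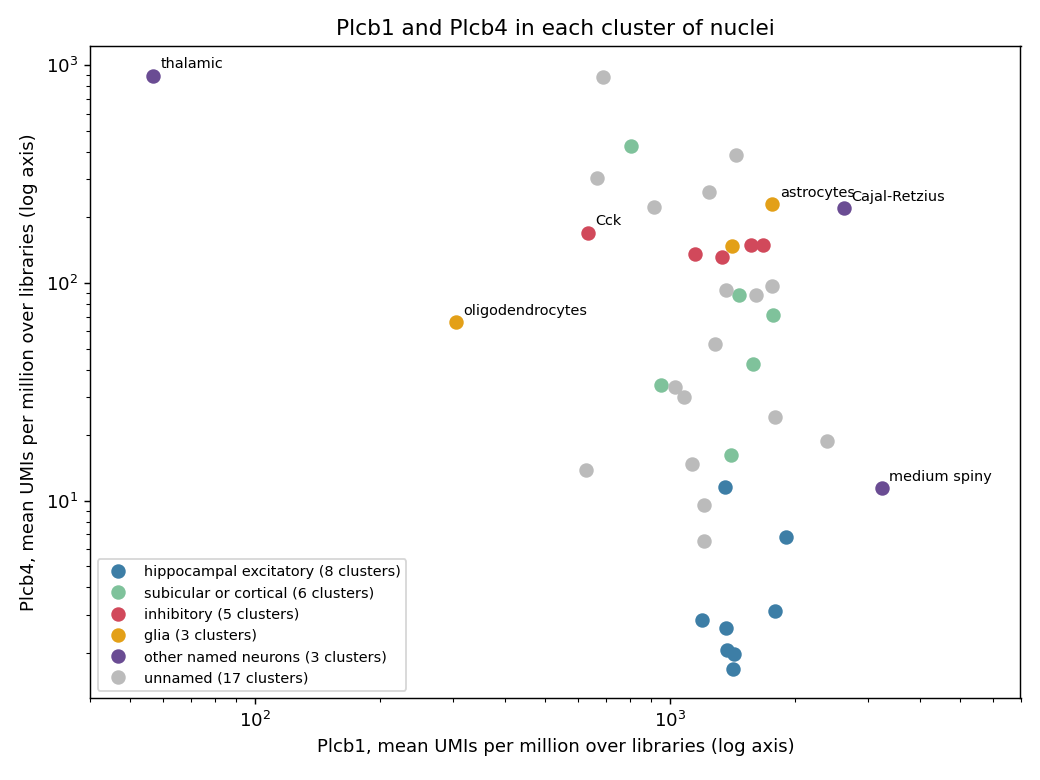
Mean Plcb1 level against mean Plcb4 level, both in CPM on log axes, for 42 of 43 clusters of nuclei, coloured by group of cell class. The 8 hippocampal excitatory clusters sit at the low end of the Plcb4 axis, while the 6 subicular or cortical clusters extend from 16.2 to 428 CPM.

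Plcb1 was high in 11 of the 13 classes and low in the other 2. CA1 neurons had 1392, 1422, 1301 and 1355 CPM, dentate granule neurons 1401, 1443, 1428 and 1357 CPM, and CA2/CA3 neurons 1618, 1536, 1568 and 1533 CPM. Each CA2/CA3 value lay above each CA1 and dentate value. Astrocytes had 1919, 1643, 1802 and 1699 CPM, the highest mean of the 13 classes on plain CPM. After TMM scaling between classes, edgeR placed them below Sst inhibitory neurons, next in that order, by -0.14 (adjusted p = 0.623). The low classes were Cck inhibitory neurons, interneurons known for carrying CB1 receptors on their terminals, with 649, 495, 804 and 594 CPM, and oligodendrocytes, the myelin-forming cells, with 249, 68.9, 358 and 539 CPM. The 2 low classes overlapped each other, and neither overlapped any other class. Single clusters outside both were low too. The subicular or cortical cluster led by Kcnh8 and Ly6g6e had 701 to 939 CPM, and the unnamed clusters led by Hapln1 and Sema3c, which carried markers of inhibitory neurons, by Cpa6 and Lef1, and by Ebf2 and Ebf3 had 576 to 752, 579 to 680 and 671 to 705 CPM.

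By edgeR's quasi-likelihood test Plcb1 was called in 25 of 78 pairs, where 43.7% of tests over all genes were called. It was lower in oligodendrocytes in 12 of 12 pairs, with 5748 to 9714 of 15058 genes called per pair. It was lower in Cck inhibitory neurons in 11 of 11 pairs with the rest, with 2640 to 9024 genes called per pair. Of the remaining 55 pairs, 2 were called. With doublets kept, the oligodendrocyte differences shrank to between -1.33 and -0.05 and 10 of 11 were called by edgeR, and with nuclei gated one by one 9 of 11 Cck pairs were. Sst over Cck inhibitory neurons was 1.36 on the log2 scale (edgeR adjusted p = 3.49e-08, 22.4% of genes called). Vip over Cck was 0.89 (SE 0.19, edgeR adjusted p = 0.000304, 17.5% of genes called), but 0.72 with adjusted p = 0.124 when nuclei were gated one by one. Cck over oligodendrocytes was 1.54 (SE 0.23, edgeR adjusted p = 2.64e-08, 58.5% of genes called). Dentate granule and CA1 neurons differed by -0.04 (edgeR adjusted p = 0.891), a sign that turned without TMM scaling.

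The calls among the remaining classes varied with the sums included. Leaving out 1 library at a time gave 0 to 6 of the 55 pairs by edgeR, and thinned nuclei gave 15. Over all 78 pairs Plcb1 was called in 38 both with thinned nuclei and with doublets kept, where 34.0% and 39.2% of tests over all genes were called. In the 9 classes with at least 50 nuclei in every library, which leave out glia and mossy cells, the standard error between CA2/CA3 and dentate granule neurons fell to 0.08 from 0.19. Plcb1 was then called in 13 of the 28 pairs without Cck neurons, in a fit that called 48.0% of all tests, and CA2/CA3 exceeded dentate granule neurons by 0.21 (edgeR adjusted p = 0.0182) and subicular or cortical neurons by 0.28 (adjusted p = 0.00253). In oligodendrocytes the excitatory marker sum was 112, 39.3, 373 and 148 CPM, against 1621 to 1656 CPM in CA1 neurons. It was lowest where Plcb1 was lowest and highest in the astrocyte library, whose Plcb1 was below that of neuron. The summed level of 7 dentate granule markers in oligodendrocytes was 5185, 5416, 5334 and 5151 CPM, but that list did not separate the 2 classes, since dentate granule neurons themselves had 5062 to 5397 CPM. The part of neuronal RNA in the result was not tested. Outside the 13 classes, medium spiny neurons had the most Plcb1, 3005 CPM in wild type and 3474 CPM in total, and the thalamic-like neurons had 81.1 CPM in total and 32.2 CPM in astrocyte, on 68 and 6 UMIs. The thalamic-like neurons thus had more Plcb4 than Plcb1 UMIs, unlike every class of the 13, and so did the unnamed Ebf2 and Ebf3 cluster, with 260 against 221 UMIs in wild type and 411 against 293 in total.

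Plcb3, the isoform found in many tissues, was scarce, at or below 0.949 CPM on average in every neuronal class. Among the 13 classes it was higher in 2 kinds of glia: oligodendrocyte precursors had 8.68, 6.84, 10.7 and 20.6 CPM, and astrocytes had 7.90, 9.26, 6.77 and 11.7 CPM, on 1 to 10 and 1 to 3 UMIs per library. No value of the 10 neuronal classes reached these levels. Oligodendrocytes had 0.994, 0.503, 7.62 and 0 CPM, on at most 1 UMI in each library. Outside the 13 classes, the unnamed cluster with microglia genes had 14.2, 3.86 and 0 CPM in wild type, total and astrocyte, on 5, 1 and 0 UMIs. The unnamed cluster led by Ttr, with markers of choroid plexus epithelium, had 19.3, 11.9, 13.6 and 0 CPM, on 12, 2, 1 and 0 UMIs. The gene passed the filter on low counts only through glia, where it is high, so its calls support nothing and its differences are given as a description. CA1 neurons against astrocytes differed by -4.74 on the log2 scale, in a pair where 40.0% of genes were called by edgeR, and against precursors by -4.81, with 53.3% of genes called. Plcb3 did not pass the filter with thinned nuclei, with nuclei gated one by one, with at least 2000 UMIs per nucleus, with male nuclei only or with at least 50 nuclei per class. Vip inhibitory neurons had 0 UMIs in all libraries, so no fold is given against them. The gene lies at chr19:6952325-6976470 on the minus strand and overlaps Ppp1r14b on the opposite strand, and whether the counting used strand is not stated.

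Gnaq, the main Gq alpha subunit of the forebrain, was highest among the 13 classes in dentate granule, CA2/CA3 and CA1 neurons, with astrocytes next and above mossy cells, all by mean CPM. Dentate granule neurons had 502, 478, 488 and 483 CPM, CA2/CA3 neurons 488, 449, 453 and 449 CPM, and CA1 neurons 471, 445, 468 and 450 CPM. Subicular or cortical excitatory neurons had 319, 312, 324 and 308 CPM. Inhibitory neurons ranged from 344 ± 22 CPM in Sst through 300 ± 7.19 in Pvalb and 295 ± 9.82 in Lamp5 to 254 ± 24.8 in Vip and 242 ± 22.2 CPM in Cck neurons (SD, n = 4). Summed by class, every library of dentate, CA1 and CA2/CA3 neurons lay above every library of the subicular or cortical and inhibitory classes. This did not hold for each cluster within the CA2/CA3 class, as given below.

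edgeR's quasi-likelihood test called Gnaq in 54 of 78 pairs, where 43.7% of tests over all genes were called. It was higher in the hippocampal excitatory class in 20 of 20 pairs with inhibitory classes, 4 of 4 with the subicular or cortical class and 11 of 12 with glia, and was called in 0 of the 6 pairs among the hippocampal excitatory classes. The exception was mossy cells against astrocytes, at 0.26, a pair in which 33.1% of genes were called. Over the 36 pairs with inhibitory, subicular or cortical and glial classes, 4299 to 9880 of 15058 genes were called per pair. Of these 36 pairs edgeR called 31 without TMM scaling, where the lowest difference was -0.06. It called 29 with nuclei gated one by one and 28 with thinned nuclei, and DESeq2 called 33. The shares of tests called over all genes and all pairs were 44.6%, 26.8%, 34.0% and 36.3%, in the same order. The difference was 1.09 between dentate granule and Cck neurons (SE 0.08, edgeR adjusted p = 2.87e-20, 59.9% of genes called) and 0.79 between CA1 and Pvalb neurons (SE 0.07, adjusted p = 5.71e-15, 61.5% of genes called). CA1 over subicular or cortical neurons was 0.65 (SE 0.07, edgeR adjusted p = 3.21e-12). Astrocytes had 508, 440, 406 and 475 CPM, overlapping the hippocampal excitatory values, although CA1 over astrocytes was called at 0.39 (SE 0.10, edgeR adjusted p = 0.000732) and only 2 of 4 libraries went that way before normalisation between classes. Outside the 13 classes, an unnamed cluster led by Siglech, C1qa and Inpp5d, genes of microglia, had 496, 661 and 664 CPM in wild type, total and astrocyte. The cluster resembling Cajal-Retzius cells led by Trp73, not low in Plcb4, had Gnaq values within those of the hippocampal excitatory classes. They were 478 CPM in wild type, on 54 UMIs, and 476 CPM in total, on 131 UMIs. Medium spiny neurons, low in Plcb4, were low in Gnaq too, at 238 CPM in wild type and 198 CPM in total, and the unnamed clusters led by C1qtnf7 and by Cdc14a had 321 to 334 and 312 to 336 CPM. Within the CA2/CA3 class, the cluster led by Ifi203, Nectin3 and Homer3 had 513 ± 18.6 CPM of Gnaq and 1421 ± 16.1 of Plcb1, and the one led by Amigo2 and Map3k15 had 386 ± 6.71 and 1903 ± 130 CPM (SD, n = 4), so that Gnaq was higher in the first and Plcb1 in the second. The remaining CA2/CA3 cluster, led by Vgll3, Col6a1 and Nkd2, was lowest in Gnaq at 380, 337, 348 and 344 CPM. In every library it lay below the subicular or cortical cluster led by Dlk1, Fras1 and Dcn, at 401, 363, 360 and 357 CPM.

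Gna11, the closest relative of Gnaq, was low and even, from 14.7 to 25.5 CPM on average. CA1 neurons had 15.1, 14.7, 14.6 and 14.5 CPM. Oligodendrocytes had 27.8, 44.8, 22.9 and 6.42 CPM, on 28, 89, 3 and 1 UMIs, so 3 of 4 libraries lay above CA1 and 1 below. edgeR's quasi-likelihood test called 12 of 78 pairs, where 43.7% of tests over all genes were called. All 12 were higher in oligodendrocytes. None of them remained called without the total library: CA1 against oligodendrocytes, a pair with 63.8% of genes called, went from -1.02 to -0.43 (edgeR adjusted p = 0.212), and the calls therefore rest on that library. Dentate granule and CA1 neurons differed by 0.15 (edgeR adjusted p = 0.178), and by 0.23 without TMM scaling between sums (adjusted p = 0.0346).

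**Figure D3:**
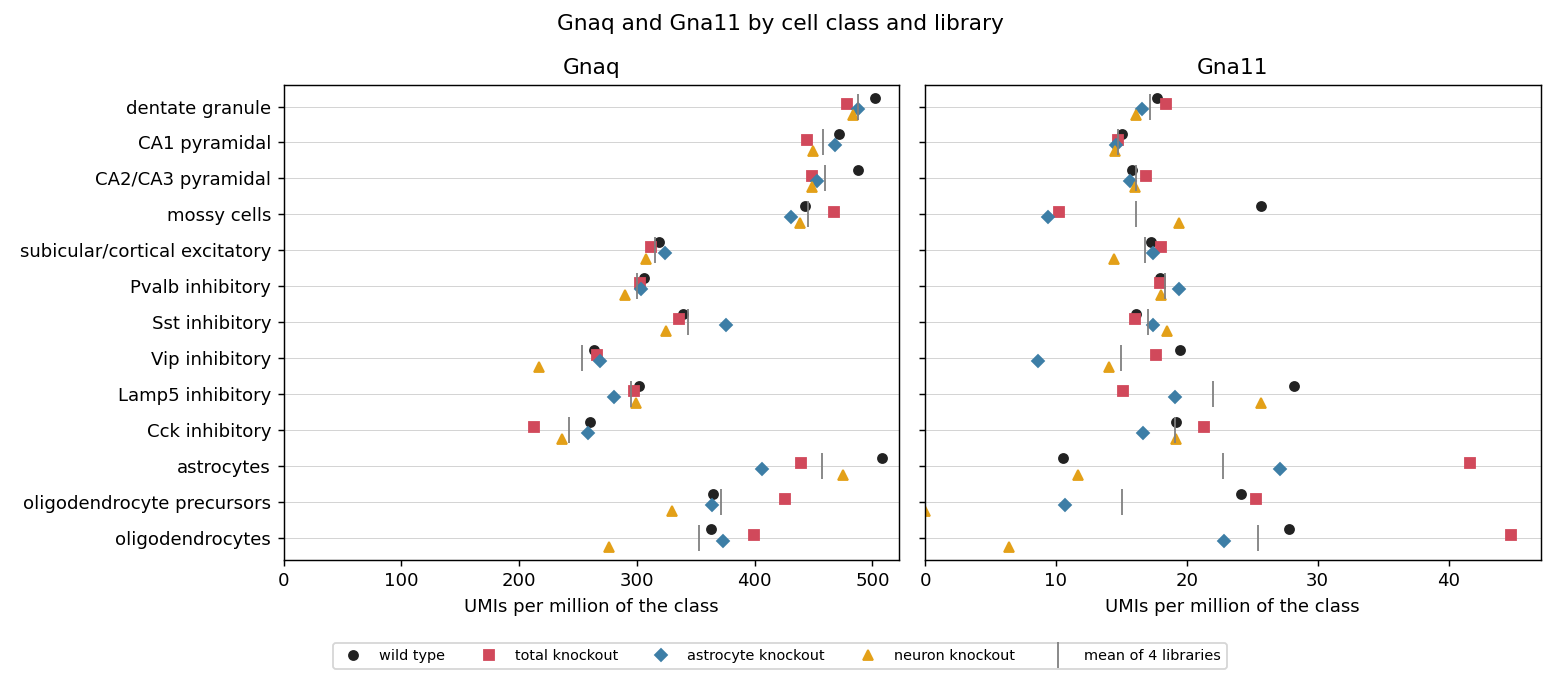
Levels of Gnaq and Gna11 in CPM in each of 13 cell classes, 1 point per library and a line at the mean of the 4 libraries. Gnaq in dentate granule, CA1 and CA2/CA3 neurons lies between 445 and 502 CPM, above all inhibitory libraries, and Gna11 spreads most in oligodendrocytes, from 6.42 to 44.8 CPM.

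Levels of different genes were compared per kilobase of gene body, since nuclear RNA holds much unspliced transcript and long genes gather more reads. Per kilobase, dentate granule neurons had 2.04 CPM of Plcb1, 1.92 of Gnaq, 1.05 of Gna11, 0.0218 of Plcb3 and 0.0125 of Plcb4. CA1 neurons had 1.98, 1.80, 0.893, 0.00978 and 0.00673 CPM per kilobase in the same order. In astrocytes the same order of genes gave 2.56, 1.80, 1.38, 0.369 and 0.650 CPM per kilobase. Plcb1 and Gnaq led on this scale in these 3 classes and in 10 of the 13. The others were oligodendrocytes, Cck and Lamp5 neurons. By mean, Gna11, whose gene is the shortest of the 5, led in oligodendrocytes at 1.55 CPM per kilobase, over Gnaq at 1.39 and Plcb1 at 0.441, and in Cck inhibitory neurons at 1.16 over 0.950 and 0.922. Neither lead held in every library. In oligodendrocytes of the astrocyte and neuron libraries, at 22.9 and 6.42 CPM on 3 and 1 UMIs, Gna11 lay below Gnaq per kilobase. In Cck neurons of the astrocyte library, at 16.7 CPM, Gna11 lay below Plcb1 and slightly below Gnaq per kilobase. In Lamp5 inhibitory neurons Gna11 (1.34) lay by mean above Gnaq (1.16) and below Plcb1 (2.27). In the total library, at 15.1 CPM, Gna11 lay below Gnaq per kilobase there.

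The other genes of the route were taken from a list arranged by role, of which 39 were tested besides the 5. Between dentate granule and CA1 neurons, 9 were higher and 21 lower in dentate neurons by edgeR, with a median difference of -0.50, while 27.9% of all genes were higher and 28.5% lower. Chrm3, the M3 muscarinic receptor, had 1474 ± 84.4 CPM in CA1 and was lower in dentate neurons by -5.56 on the log2 scale (SE 0.21, edgeR adjusted p = 3.69e-32). Grm5, the metabotropic glutamate receptor 5, was highest in CA1 at 3878 ± 174 CPM (dentate against CA1 -0.71, edgeR adjusted p = 0.0145). All 6 tested genes of the IP3 receptor and protein kinase C arms were called in this pair, 1 higher and 5 lower, and Itpr1, an IP3 receptor, was highest in CA1 at 538 ± 22 CPM. Both diacylglycerol lipases were higher in dentate neurons, Dagla by 0.44 (SE 0.08, edgeR adjusted p = 1.15e-06; 141 ± 16.3 CPM) and Daglb by 0.24 (adjusted p = 0.00611).

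Between CA1 and Sst neurons, 18 list genes were higher and 14 lower in CA1 (29.2% and 30.7% of all genes). The 6 IP3 and protein kinase C genes and the 4 tested receptor scaffolds were all higher in CA1, while 8 of 13 receptors and 4 of 7 regulators were lower. Gna14, a further Gq family subunit, was found in Sst neurons at 47.7 ± 4.57 CPM and in Pvalb neurons at 18.9 CPM (Pvalb against Sst -1.33, edgeR adjusted p = 2.86e-14, 28.3% of genes called), and at or below 2.4 CPM elsewhere. The alpha-1A adrenergic receptor gene Adra1a ranged from 453 ± 18.6 CPM in Lamp5 neurons to 1.06 CPM in dentate neurons. Cck neurons, low in Plcb1, had the highest Htr2c, a serotonin receptor, at 411 ± 29.2 CPM. Against astrocytes, CA1 neurons had 19 list genes higher and 4 lower (21% and 19% of all genes), a split that the scaling between classes affects, as given in the closing limits. Over all pairs 1908 of 3042 list tests were called, or 62.7%, against 43.7% of tests over all genes. The list was chosen with earlier results of these data known and was not matched to all genes for level. Its tests share the same 13 classes, so the 2 shares are a description only.

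The remaining named genes showed further class differences, given here as mean levels. Plcb2 stayed at or below 2.06 CPM and Gna15 at or below 0.171 CPM in every class, and neither was tested. Chrm1, the M1 muscarinic receptor, was similar in dentate and CA1 neurons at 90.5 and 90.1 CPM. Of the regulators that shorten Gq signals, Rgs4 reached only 15.9 CPM, in mossy cells, Rgs8 was highest in Cck neurons at 85.1 CPM, and the receptor kinase Grk3 in astrocytes at 245 CPM. Among enzymes that supply PIP2, Pip5k1b ranged from 798 ± 20.6 CPM in dentate neurons to 83.5 CPM in the subicular or cortical class. The receptor scaffolds Homer1 and Homer2 peaked at 568 ± 175 CPM in the subicular or cortical class and 235 CPM in Lamp5 neurons. Prkca, a protein kinase C, was highest in CA2/CA3 at 1504 CPM and lowest in Sst neurons at 166 CPM.

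**Figure D4:**
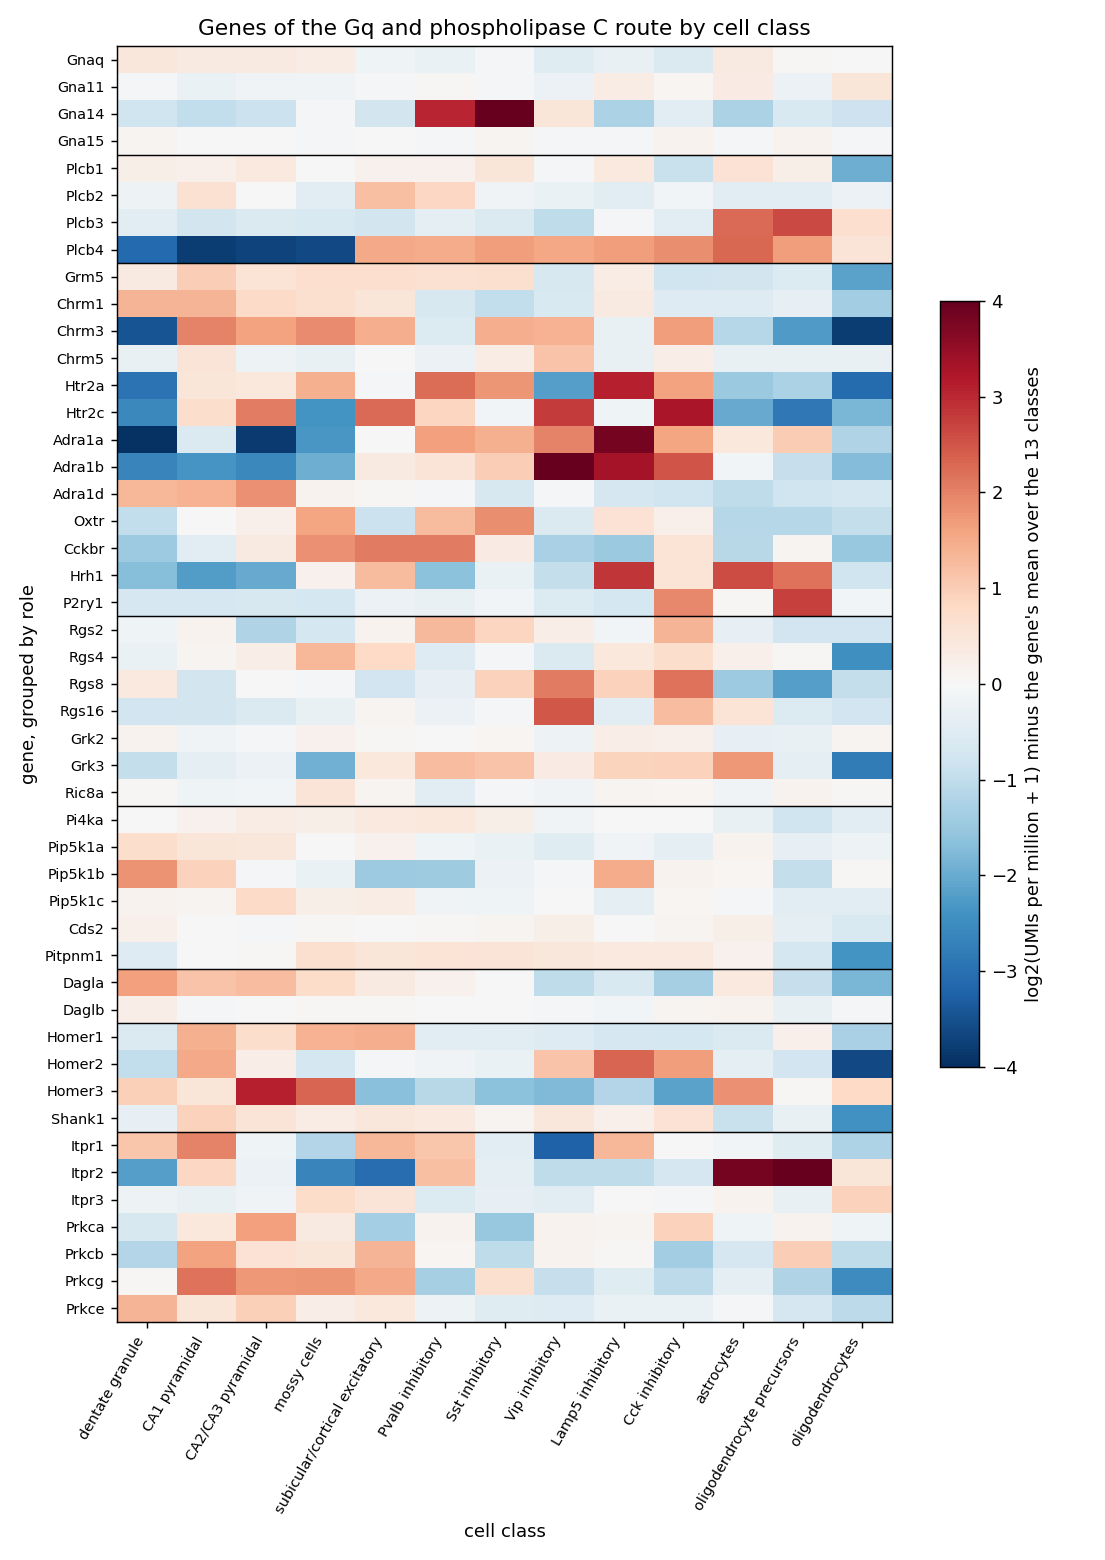
Levels of genes of the route by role (rows) in 13 cell classes (columns), coloured by log2(CPM + 1) minus the gene's mean over the classes, with colours limited to 4 either way. Plcb4 is low and Gnaq high in the hippocampal excitatory columns, and Chrm3 separates CA1 from dentate granule neurons.

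Against wild type, Plcb1, Plcb4, Gnaq and Gna11 stayed within 1.5-fold in most of the knockout ratios with enough UMIs, and Plcb3 had no class with enough. These ratios compare single libraries, their intervals cover counting error only, and all 3 comparisons share the same wild type library. Of 138 ratios in classes where the gene had 100 or more UMIs in all, 7 (5.07%) were past 1.5-fold, where over all genes 9.76% were. Gnaq had 0 of 39 past that fold, from -0.39 to 0.22 on the log2 scale with a median of -0.04. Plcb1 had 2 of 39, with a median of -0.05. In the 7 largest classes Plcb1 ran from -0.39 to 0.31, Gnaq from -0.29 to 0.15 and Gna11 from -0.26 to 0.20. The only ratios past 1.5-fold there were 3 of Plcb4 (3 of 84, with 7.34% over all genes), all at 1.45 to 3.72 CPM: CA1 in total at 0.67 (95% interval -0.01 to 1.39) and in astrocyte at -0.64 (-1.49 to 0.19), and CA2/CA3 in total at 0.84 (0.03 to 1.70).

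The 4 others were all in oligodendrocytes. The shares of all genes past 1.5-fold in that class were 10.5% in total and 27.9% in neuron. Plcb1 there was at -1.86 in total (95% interval -2.17 to -1.55, 137 against 251 UMIs) and at 1.11 in neuron (0.74 to 1.47, 84 UMIs). Gna11 was at 0.69 in total (0.06 to 1.35) and at -2.12 in neuron (-7.47 to 0.48, on 1 UMI). With doublets kept, both Plcb1 ratios changed sign, to 0.65 in total and -0.24 in neuron. The part of neuronal RNA in these ratios was not tested. Of the genes past the Gq step, Dagla was at 0.16, 0.32 and 0.38 in dentate neurons of total, astrocyte and neuron, and at 0.16, 0.23 and 0.33 in CA1, all within 1.5-fold.

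**Figure D5:**
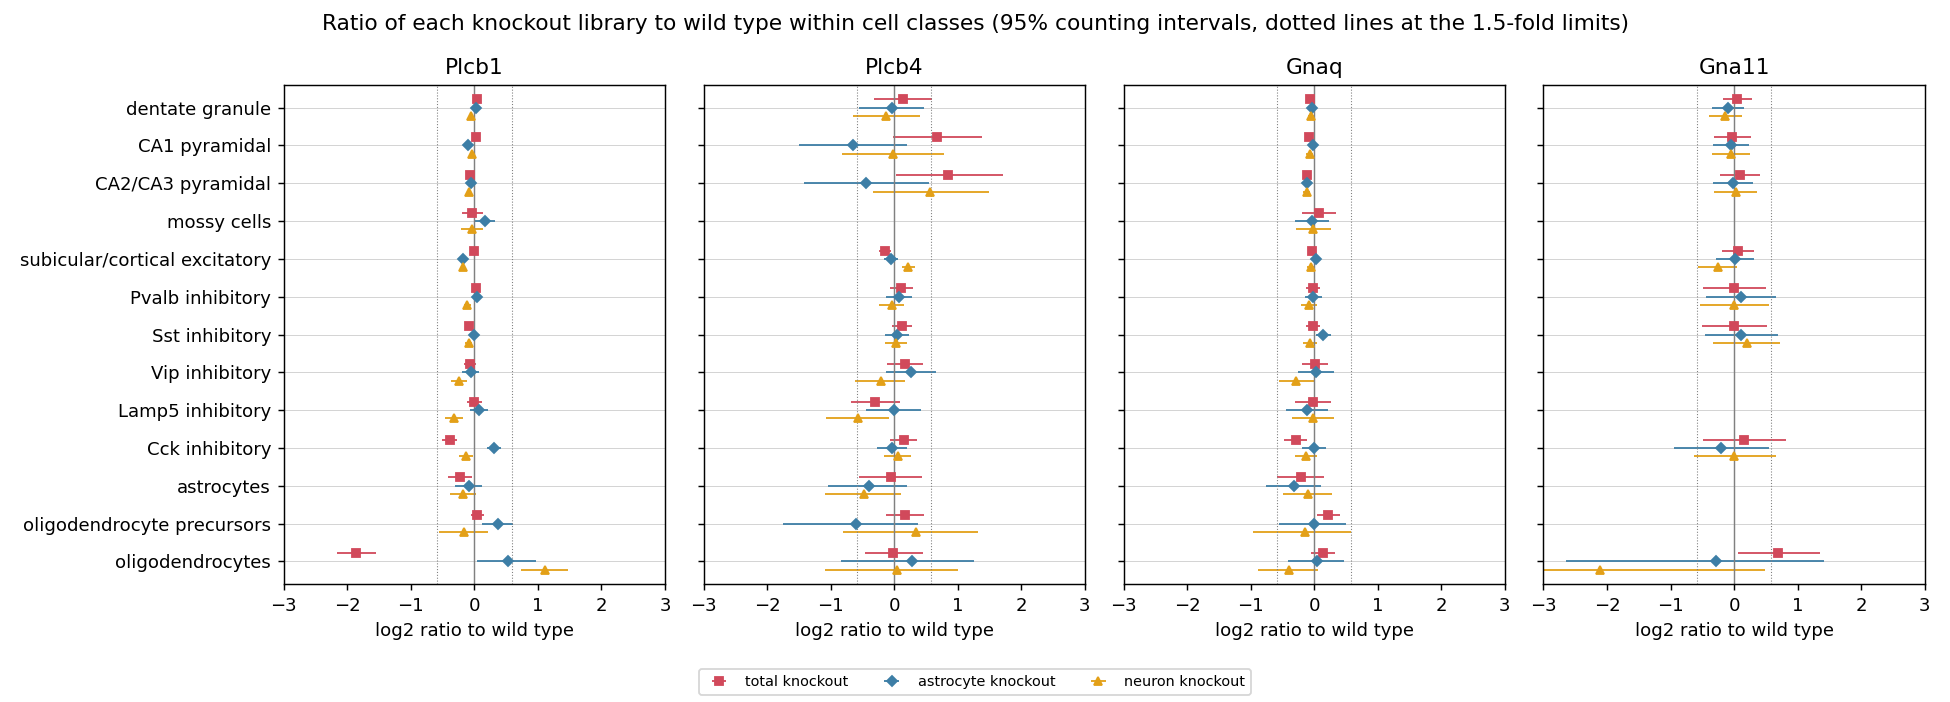
Log2 ratio of each knockout library to wild type for Plcb1, Plcb4, Gnaq and Gna11 by cell class, with exact 95% intervals that cover counting error only. Most points lie between the 1.5-fold lines, and the points outside them are Plcb4 in CA1 and CA2/CA3 neurons and Plcb1 and Gna11 in oligodendrocytes, where 1 interval (Gna11 in the neuron library) runs past the axis.

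Within the 3 libraries that held both sexes, female nuclei were compared with male nuclei of the same library in dentate granule, CA1 and CA2/CA3 neurons. On the log2 scale, the ratios of Plcb1 ran from -0.14 to 0.19 and Gnaq from -0.18 to 0.03, and Gna11, with far fewer UMIs, from -0.36 to 0.56. The same ratios were not computed for other genes, so these ranges are a description only.

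Across the 52 sums of library and class, the genes whose log levels followed each member most closely were, of 13881 compared, Astn1 (Pearson r = 0.90), Rgs7 (0.88) and B4galt6 (0.85) for Plcb1, and Stat5b (0.94), Gtf2ird1 (0.90) and Anks1 (0.89) for Plcb4. For Gnaq they were Nckap1 (0.90), Rnf19a (0.83) and Emx2os (0.82), for Plcb3 Fgfrl1 (0.92), Loxl3 and Kcnj16 (0.91 each), and for Gna11 Dph5 (0.87), Nudc (0.86) and Cnih4 (0.85). Plcb4 and Gnaq had r = -0.68 and Plcb1 and Plcb4 r = -0.09. These are descriptions over 13 classes, since the 4 sums of a class and the 13 sums of a library are not independent.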

How the data were processed

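The authors deposited, for each of 4 libraries, a matrix of UMI counts per gene and nucleus; per the submitters' processing notes these came from Cell Ranger ARC 2.0.0 and the build mm10. The counts are whole numbers with no normalisation. Whether strand was used in counting is not stated, and Plcb1, Plcb4, Gnaq and Plcb3 overlap other genes.

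Nuclei with at least 500 genes and under 5% mitochondrial UMIs were kept, and doublets were removed at an expected rate of 0.8% per 1000 nuclei. Clustering (scanpy 1.11.5, leidenalg 0.10.2) used 2000 variable genes, 30 components, 15 neighbours and resolution 1. A cluster was named from at least 3 markers, and 17 of 43 clusters stayed unnamed. UMIs were summed per library and class with at least 15 nuclei in every library, giving 52 sums of 13 classes. edgeR 4.0.16 (R 4.3.3) fitted class and library with TMM scaling, filterByExpr and robust quasi-likelihood on 36 residual degrees of freedom, with Benjamini-Hochberg adjustment within each of 78 pairs at 0.05. The 4 libraries are the replicates of a class difference. Classes were made from the same nuclei as the tests, and no label says how many animals a library held. The test was tried on simulated sums with the sizes of the dentate granule and CA1 sums and the dentate means in both. It recovered 97 of 100 genes changed 1.5-fold and 100 of 100 changed 2-fold, with 9 false calls over 15058 genes. The simulated spread was low and fixed, without a library effect, and only genes above 5 CPM were changed. The simulation did not cover levels as low as Plcb4 in these classes, or the smaller glial and mossy sums.

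Ratios to wild type carry exact conditional binomial 95% intervals and were counted past 1.5-fold where the class held 100 or more UMIs of the gene. Per-kilobase values divide by gene length in GENCODE M21. Barcodes shared by 2 libraries numbered 108 to 466. The members and lists were chosen with earlier results of these data known. Besides the 5 members, the named genes are a set list of the route plus, per role, up to 2 others with the widest range of class means, and per member the 3 genes most like it. Clusters described by their leading genes were picked after their values were seen. Alternatives tried were doublets kept, coarser clusters (resolution 0.5), gating nuclei one by one, members allowed in clustering, nuclei with 2000 UMIs, thinned nuclei, male nuclei only, 50 nuclei per class, other scaling, no filter, DESeq2 1.42.0, other minimums and folds, and leaving out each library. A list gene that counts toward the totals is not reported here by name.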

Additional observations from a re-analysis of the deposited data

Results flagged for a closer look

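Of 64 groups of 4 libraries examined (1 gene in 1 class each), 6 had 1 library far from the other 3 by Dixon's test at its 95% critical value, and chance flags about 1 in 20 groups. Gnaq in CA2/CA3 neurons was highest in wild type, at 488 CPM against 453 CPM in the next library, and in Vip inhibitory neurons lowest in the neuron library, at 217 CPM against 263 CPM. The astrocyte library was the highest in the 4 others. Plcb4 in oligodendrocytes was 76.2 CPM there, against 64.2 CPM in the next library, and Gna11 in Pvalb inhibitory neurons was 19.4 CPM against 18 CPM. Plcb3 was 7.62 CPM in oligodendrocytes and 1.34 CPM in mossy cells, each on 1 UMI.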

How the results depend on the processing

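The count of member differences called by edgeR, 171 of 390 with Plcb3 and 146 of 312 without it (43.7% over all genes), was 111 of 275 at clustering resolution 0.5 (99 of 220 without Plcb3, 44.9% over all genes). It was 70 of 144 with male nuclei only (41.6%) and 72 of 144 with at least 50 nuclei per class and library (48.0%), where fewer classes were tested and Plcb3 was not; for the list, 1908 of 3042, it was 904 of 1368 and 977 of 1404 in the last 2. Member ratios past 1.5-fold, 7 of 138, were 15 of 147 with doublets kept, 28 of 189 gated one by one, 4 of 99 thinned, 1 of 96 male, 16 of 156 at 20 UMIs and 19 of 138 at the lower fold limit, where over all genes 9.76%, 12.7%, 13.5%, 11.7%, 9.42%, 20.8% and 27.6% were, in the same order. For list ratios, 104 of 948, the same settings other than male gave 178 of 1083, 260 of 1239, 56 of 555, 246 of 1242 and 253 of 948. Leaving out each library gave 151 to 160 of 390 member calls, or 129 to 138 of 312 without Plcb3, and 1768 to 1887 list calls. Over all genes, 36.6% to 41.1% of tests were called in these fits, and without the total library Gna11 had 0. Plcb1, called in 25 of 78 pairs as reported, had 38 calls with doublets kept, 38 thinned and 51 of 153 gated, and Plcb4, called in 55, had 37 with doublets kept. The shares of tests called over all genes were 39.2% with doublets kept, 34.0% thinned and 26.8% gated. Signs changed for Plcb1 in dentate against CA1 neurons, from -0.04 to 0.0895 (gated), 0.0606 (thinned), 0.0187 (male) and 0.0398 (no TMM), and for Plcb4 in that pair to -3.33 (gated). They also changed for the ratios of Plcb4 in CA1 of astrocyte (0.95, gated), Plcb4 in CA2/CA3 of total (-0.57, gated), and Plcb1 in oligodendrocytes of total (0.65) and neuron (-0.24) with doublets kept. The causes were not tested. Of 292 values of single genes, these 9 included, 271 were counted as kept. A class difference had to keep its direction and side of the threshold. A ratio had to keep its direction and stay inside its counting interval, and was not held to the fold limit. Outside these values, Plcb4 in dentate granule against CA2/CA3 neurons turned to -2.61 (gated), and 1 of the 12 called Gna11 pairs changed sign without the total library. Leaving out TMM shifted the median over genes by more than 0.1 (log2) in 39 of 78 pairs. The shifts ran from -0.40 to 0.16. The lowest was in CA1 against astrocytes, where the share of higher among called genes went from 52.4% with TMM to 29.3% without it. The small glial, mossy and Plcb3 sums limit the precision. No paired analysis was possible because each genotype has 1 library and the labels carry no replicate numbers, while the class fits hold library as a term.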
